A study of Mus musculus with 10 samples.

Results

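The TGF-beta and BMP signalling genes of mouse lung were followed after repeated intranasal IL-33, an alarmin cytokine released by damaged epithelium. The set held the genes whose symbol starts with Bmp, Gdf, Smad, Ltbp or Tgfb and a digit, or with Bmpr, Tgfbr, Inhb or Acvr, together with Grem1, Nog and Fst. This gave 59 of the 53465 genes listed. IL-33 mice received 1 µg in 35 µL through the nose on each of 5 days. Control mice are described as untreated, and no source used here names a vehicle. All mice were BALB/c, of an age and sex that no source used here gives, and the labels give 24 hours between the final dose and collection. There were 5 libraries per group, each from a lung sample whose animal the labels do not number, so p-values measure the spread between these samples.

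The TGF-beta superfamily comprises secreted dimers (the TGF-betas, the activins, the BMPs and the GDFs) that bring type II and type I serine/threonine kinase receptors together. TGF-betas and activins act mainly through SMAD2 and SMAD3, BMPs mainly through SMAD1, SMAD5 and SMAD9 (SMAD8), and both share SMAD4, while SMAD6 and SMAD7 oppose the signal. TGF-beta is secreted in a latent complex held in the matrix by LTBPs, and in the lung it is known for its part in matrix deposition, whereas BMP signalling through ACVRL1 and BMPR2 maintains pulmonary vessels.

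Levels are library-scaled reads (CPM, with TMM factors), given as mean ± SD of 5 libraries, and levels of different genes are compared only as RPKM, CPM per kilobase of exon. Changes are log2 fold changes, IL-33 over control, from edgeR's quasi-likelihood fit to all genes, and a gene was called at a Benjamini-Hochberg adjusted p under 0.05 over 15695 genes. Reads counted in genes numbered 7805175 to 13178798 in IL-33 libraries and 8935159 to 13767118 in control libraries. Lung markers were abundant, with Sftpc (surfactant protein C) at 10199 ± 785 CPM in IL-33 lungs and 10586 ± 905 CPM in control lungs and Ager (alveolar type 1 cells) at 1161 ± 78.4 CPM in IL-33 lungs and 1714 ± 148 CPM in control lungs. Multiply aligned reads made up 19.97% to 22.8% of records in IL-33 libraries and 15.0% to 16.2% in control libraries. Their part in the results was not tested.

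Most of the family was lower in IL-33 lungs. Of the 59 genes, 44 passed the filter on low counts and 37 of these were called (84.1%, against 69.9% of all genes tested), 30 lower and 7 higher. The lower calls were 68.2% of the tested members against 34.8% of all genes, and the higher calls 15.9% against 35.1%. The 7 higher genes were the ligand genes Tgfb1, Inhba, Bmp7, Gdf10 and Gdf11, the activin antagonist Fst and the kinase gene Bmp2k. At 2-fold or more, 15 members were lower (34.1%, against 8.79% of all genes) and 4 were higher (9.09%, against 14.5%). Together these were 19 of the 44 tested members, beside 3657 of all 15695 genes tested (23.3%). The lower counts at both thresholds include Grem1, which passed the filter only through the control libraries. The median log2 fold change was -0.63 over the tested members and -0.01 over all genes. The groups did not overlap for 31 of the 44 (70.5%, against 56.5% of all genes), of which 25 were lower (27.4% of all genes) and 6 higher (29.1% of all genes). Levels are relative to the reads of each library. In whole lung, fewer cells of a type, less RNA per cell and more RNA from other cells therefore cannot be told apart.

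**Figure D1:**
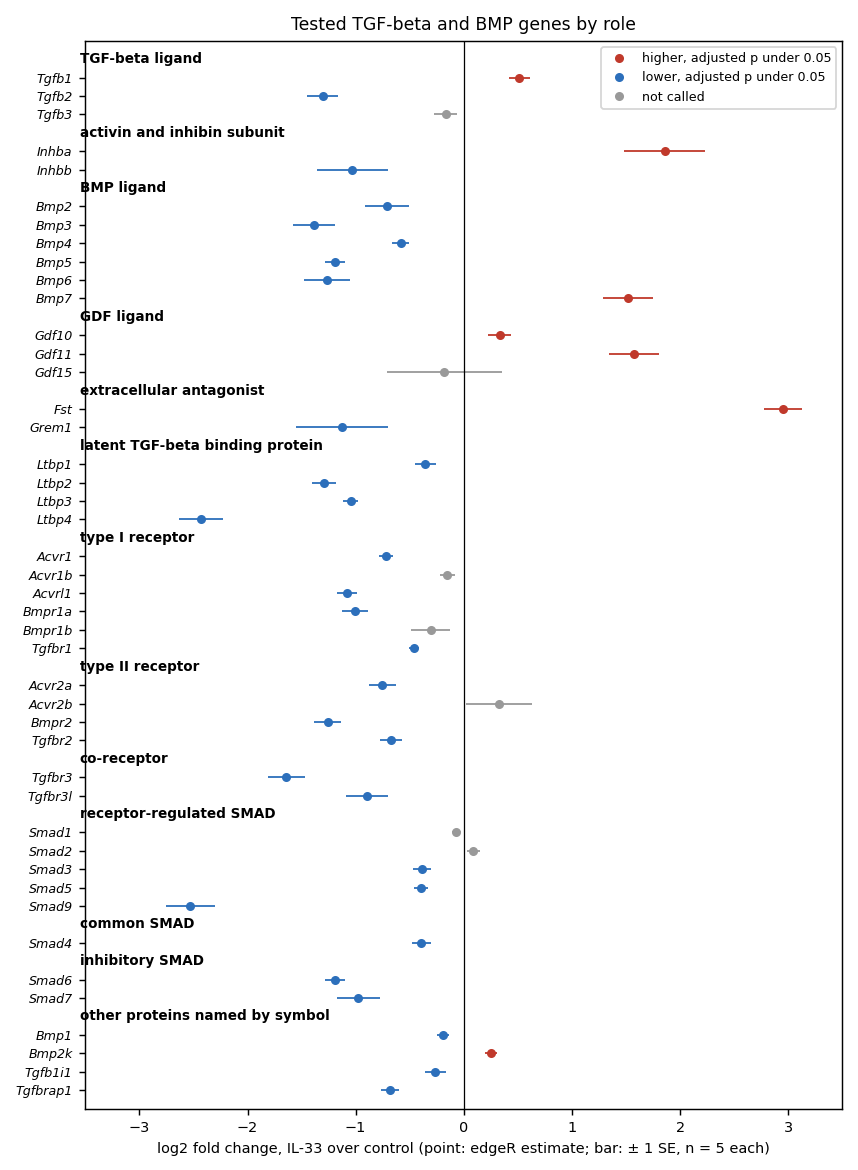
Log2 fold change, IL-33 over control, of the 44 tested members by role (points, with SE bars from 5 and 5 libraries). Most points lie left of 0, Fst at 2.95 lies farthest right and Smad9 at -2.53 and Ltbp4 at -2.43 farthest left.

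Tested members had a median exonic length of 5455 bases, against 4170 for all genes tested. After each library's trend on length and GC content was removed, 28 members were lower (37.8% of all genes) and 8 higher (30.4% of all genes), and 34 kept both call and direction. The median over the tested members was then -0.49, against -0.08 over all genes. Bmpr2 (-0.975), Bmpr1a (-0.954), Ltbp2 (-0.999), Ltbp3 (-0.667) and Inhbb (-0.899), lower by at least 2-fold before, were still called but under 2-fold. Tgfbr3l went the other way, from -0.895 to -1.07. The share of all genes at 2-fold after the correction is not given here. Together the 59 genes summed to 3140.2 ± 288 CPM in IL-33 lungs and 6085 ± 238 CPM in control lungs. Without Ltbp4, Bmpr2, Acvrl1 and Tgfbr2, which carried many of these reads, the sum was 1898 ± 109 CPM in IL-33 lungs and 2939 ± 116 CPM in control lungs.

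**Figure D2:**
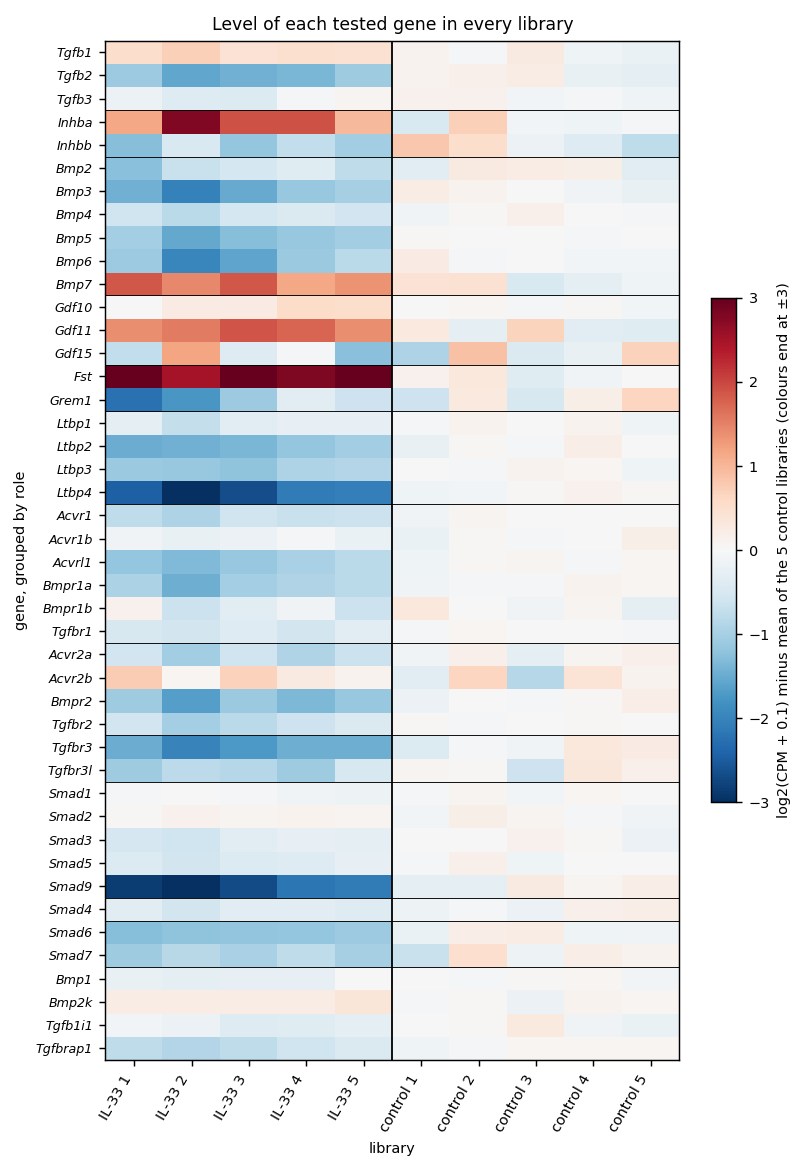
Each tested member (rows, by role) in the 5 IL-33 and 5 control libraries (columns), as log2(CPM + 0.1) minus the mean of the control libraries; colours end at 3 in either direction. Fst, Inhba, Gdf11 and Bmp7 are above the control mean in all 5 IL-33 libraries, and most receptor, LTBP and BMP rows are below it.

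Promoters of 4 members are shown because these genes moved apart: Bmpr2, Smad9 and Tgfb2 were among the 2-fold lower members and Tgfb1 was higher. Each is the 250 bases before the RefSeq gene start (GRCm38.p6), written 5′ to 3′ on the gene's strand, with matches to 2 SMAD-related motifs, GTCTG and GGCGCC, on either strand in capitals.
Bmpr2 (chr1:59764029-59764278, forward strand): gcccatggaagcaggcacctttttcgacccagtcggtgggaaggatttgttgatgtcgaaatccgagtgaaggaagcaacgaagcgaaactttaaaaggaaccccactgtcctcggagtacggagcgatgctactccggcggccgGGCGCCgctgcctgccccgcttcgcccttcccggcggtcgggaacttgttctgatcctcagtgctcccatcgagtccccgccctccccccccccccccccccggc
Smad9 (chr3:54755332-54755581, forward strand): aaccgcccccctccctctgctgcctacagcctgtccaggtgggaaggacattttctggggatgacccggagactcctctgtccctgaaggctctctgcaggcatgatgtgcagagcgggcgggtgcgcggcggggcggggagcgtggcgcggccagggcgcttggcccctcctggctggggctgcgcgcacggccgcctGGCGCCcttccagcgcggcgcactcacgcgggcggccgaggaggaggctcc
Tgfb2 (chr1:186705990-186706239, reverse strand): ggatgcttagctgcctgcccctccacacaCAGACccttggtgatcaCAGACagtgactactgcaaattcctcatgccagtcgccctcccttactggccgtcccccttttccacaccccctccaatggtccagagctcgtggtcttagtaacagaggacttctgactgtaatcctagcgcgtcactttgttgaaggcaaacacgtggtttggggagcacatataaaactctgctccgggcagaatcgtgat
Tgfb1 (chr7:25686752-25687001, forward strand): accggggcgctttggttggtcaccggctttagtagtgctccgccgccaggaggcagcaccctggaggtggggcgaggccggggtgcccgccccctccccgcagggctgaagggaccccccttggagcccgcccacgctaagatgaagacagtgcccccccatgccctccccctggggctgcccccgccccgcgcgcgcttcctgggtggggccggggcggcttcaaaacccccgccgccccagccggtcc
Bmpr2 and Smad9 hold 1 GGCGCC each, Tgfb2 holds CAGAC, the reverse complement of GTCTG, at 2 places, and the Tgfb1 window holds neither motif. Of the 42 members with a window in the table, 18 hold GTCTG (42.9%, against 42.2% of 27025 windows of that length) and 7 hold GGCGCC (16.7%, against 9.57%). The 7 are Bmp2k, Bmpr1a, Bmpr2, Gdf1, Grem1, Smad9 and Tgfbr1. A STAT-type palindrome, TTC and GAA with 4 bases of any kind between them, occurs in 1 member window, that of Tgfbr3l (2.38%, against 5.88%). No matches to the first 2 motifs overlap. These matches describe letters and no site of binding, and whether a match goes with a change in level was not tested. Among the 7 genes with GGCGCC, the RefSeq starts used for Bmpr2 and Bmpr1a lie within the genes as GENCODE draws them. Their windows are thus not upstream of the first GENCODE exon. The Gdf1 window ends at base 70315774 of chromosome 8, far before the GENCODE start of Gdf1 at 70329817.

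The 3 TGF-beta ligand genes did not move together. Tgfb1, the main isoform of immune and other haematopoietic cells (ENSMUSG00000002603, chromosome 7, 25687002 to 25705077), stood at 136, 155, 127, 133 and 129.5 CPM in IL-33 libraries 1 to 5, against 101, 91.5, 115, 87.3 and 82.3 CPM in control libraries 1 to 5. Every IL-33 library lay above every control library, and the log2 fold change was 0.51 ± 0.10 (SE, adjusted p = 0.000239). Tgfb2, an isoform made largely by epithelium and other structural cells, stood at 21.0, 15.0, 16.5, 17.2 and 21.3 CPM in IL-33 libraries 1 to 5, against 48.3, 50.1, 52.4, 38.3 and 37.5 CPM in control libraries 1 to 5. All IL-33 values were below all control values, and the change was -1.31 ± 0.14 (SE, adjusted p = 1.11e-06). Tgfb3, an isoform of mesenchyme and epithelium, was not called at 38.7 ± 5.60 CPM in IL-33 lungs and 43.6 ± 3.68 CPM in control lungs (log2 fold change -0.17, adjusted p = 0.148), although it was lower after length and GC correction (-0.32, adjusted p = 0.00889) and without IL-33 library 5 (-0.24, adjusted p = 0.0362).

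The 3 TGF-beta genes summed to a mean of 193 CPM in IL-33 libraries (177 to 204) and 184 CPM in control libraries (159.85 to 208), with overlapping groups, while the make-up differed. Shares within a role were compared by two-sided exact permutation tests over the libraries, adjusted over 39 shares. Tgfb1 made up 70.5% ± 3.85 of the reads of the 3 genes in IL-33 lungs and 51.7% ± 2.41 in control lungs (SD, n = 5 each). Tgfb2 made up 9.44% ± 1.43 of the same reads in IL-33 lungs and 24.5% ± 1.41 in control lungs (SD, n = 5 each). Both shares, and every share given below without its own p, had an adjusted p of 0.0119 in the exact test, the smallest that these 39 shares gave, from a p of 0.00794, the smallest that 5 against 5 libraries allow. Beside these values, 9 of 12 macrophage markers were higher (75%, against 35.1% of all genes) and 3 lower (25%, against 34.8%). The macrophage markers summed to 1090.1 to 1552 CPM in IL-33 libraries and 508 to 542 CPM in control libraries, and the eosinophil markers to 214 to 252 CPM in IL-33 libraries and 17.7 to 20.7 CPM in control libraries. Their part in the Tgfb1 level was not tested.

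**Figure D3:**
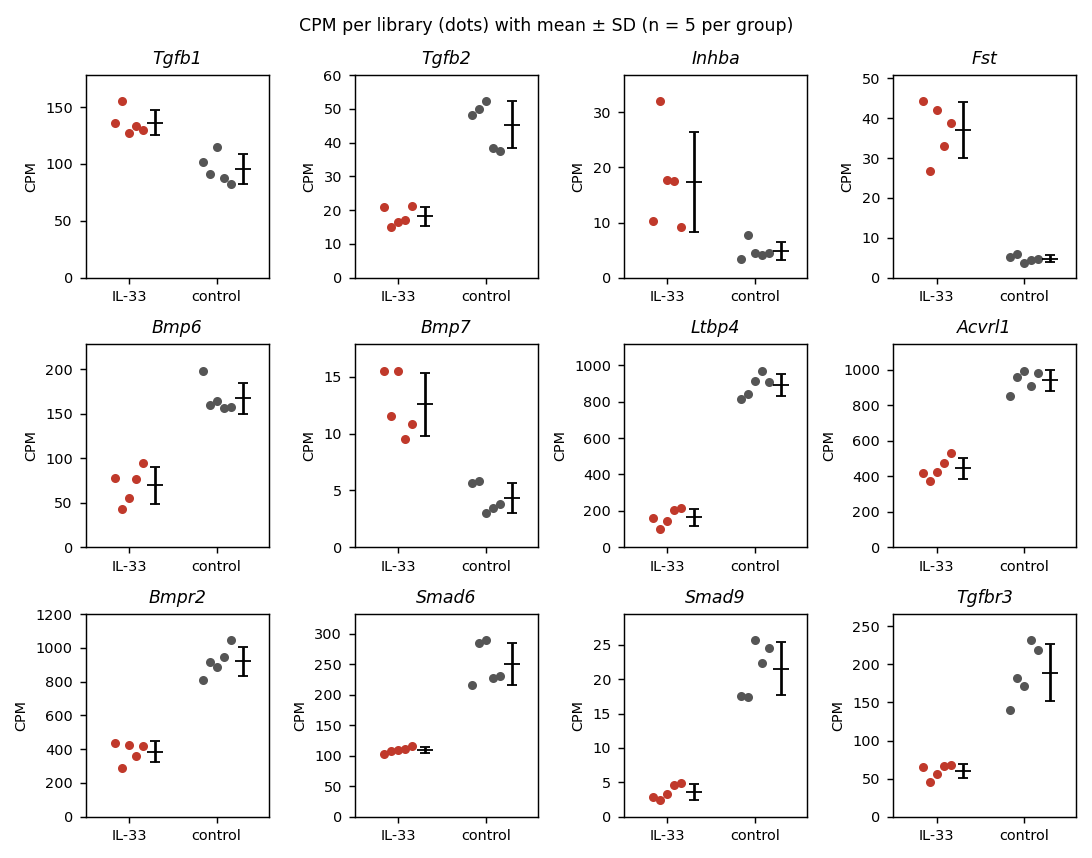
Level in CPM of 12 members in each IL-33 library (left in each panel) and each control library (right), on axes from 0; dots are libraries and bars mean ± SD of 5. For Fst and Tgfb1 every IL-33 point lies above every control point, and for Tgfb2, Ltbp4, Acvrl1 and Bmpr2 every one lies below.

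Activin subunit genes moved in opposite directions. Inhba, which encodes the beta-A subunit of activin A, stood at 10.4, 32.0, 17.6, 17.5 and 9.21 CPM in IL-33 libraries 1 to 5, against 3.32, 7.66, 4.39, 4.20 and 4.46 CPM in control libraries 1 to 5. The IL-33 libraries spread widely but each was above all controls, with a log2 fold change of 1.86 ± 0.37 (SE, adjusted p = 0.000254). Inhbb, the beta-B subunit gene, stood at 9.08, 16.2, 9.86, 13.2 and 10.8 CPM in IL-33 libraries 1 to 5, against 38.8, 32.1, 19.6, 17.1 and 13.0 CPM in control libraries 1 to 5. IL-33 libraries 2 and 4 were above the lowest control, library 5, and the change was -1.03 ± 0.33 (SE, adjusted p = 0.00449). Inhba made up 57.4% ± 8.24 of the activin subunit reads in IL-33 lungs and 18.2% ± 6.40 in control lungs (SD, n = 5 each).

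Fst had the largest rise of the members. Follistatin, its product, binds activins and keeps them from their receptors. Fst (ENSMUSG00000021765, chromosome 13, 114452290 to 114458951) stood at 44.3, 26.9, 42.2, 33.1 and 38.9 CPM in IL-33 libraries 1 to 5, against 5.16, 5.91, 3.60, 4.38 and 4.74 CPM in control libraries 1 to 5. The lowest IL-33 library was far above the highest control, and the log2 fold change was 2.95 ± 0.18 (SE, adjusted p = 1.04e-08). Grem1, whose product gremlin 1 binds BMPs, had few reads and stood at 0.296, 0.459, 0.778, 1.40 and 1.11 CPM in IL-33 libraries 1 to 5, against 1.13, 2.19, 1.24, 2.01 and 2.85 CPM in control libraries 1 to 5. It passed the filter only through the control libraries, its groups overlapped, and its change of -1.13 ± 0.43 (SE, adjusted p = 0.0179) was lost without control library 5 (-0.94, adjusted p = 0.0515).

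Of the 6 tested BMP ligand genes, 5 were lower and 1 higher. Bmp6, the most abundant of them per kilobase (17.8 RPKM in IL-33 lungs and 43.0 RPKM in control lungs), stood at 78.1, 42.7, 55.3, 76.6 and 95.0 CPM in IL-33 libraries 1 to 5, against 199, 160.4, 164, 156 and 158 CPM in control libraries 1 to 5. The groups did not overlap, and the change was -1.26 ± 0.21 (SE, adjusted p = 2.36e-05). Bmp5 stood at 49.2, 34.6, 41.0, 45.6 and 48.4 CPM in IL-33 libraries 1 to 5, against 102, 99.7, 100.2, 97.9 and 102 CPM in control libraries 1 to 5. Again no IL-33 library reached the lowest control, and the change was -1.19 ± 0.09 (SE, adjusted p = 1.15e-07). Bmp5 and Bmp6 are close relatives within the BMP family. For Bmp5, 46.7% of exonic bases lie opposite the gene model Gm26903. Because no source used here gives the strand setting of the counting, the Bmp5 counts are uncertain.

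Bmp3, a BMP relative known to oppose osteogenic BMPs, stood at 34.1, 22.7, 32.7, 42.5 and 46.7 CPM in IL-33 libraries 1 to 5, against 109, 101, 92.1, 86.7 and 80.6 CPM in control libraries 1 to 5. Its groups did not overlap and its change was -1.39 ± 0.20 (SE, adjusted p = 4.95e-06). Bmp4, a ligand that patterns the developing lung, fell to 53.0 ± 4.92 CPM in IL-33 lungs, against 79.7 ± 5.51 CPM in control lungs (-0.59, adjusted p = 1.68e-05), and its change was -0.96 after length and GC correction. Bmp2, the closest relative of Bmp4, averaged 5.43 ± 1.17 CPM in IL-33 lungs and 8.97 ± 1.86 CPM in control lungs (-0.71, adjusted p = 0.00387). Bmp7, known as a ligand that counters TGF-beta in kidney, was the exception at 15.5, 11.6, 15.6, 9.50 and 10.8 CPM in IL-33 libraries 1 to 5, against 5.65, 5.80, 3.04, 3.41 and 3.79 CPM in control libraries 1 to 5. Here every IL-33 library exceeded every control library, with a change of 1.52 ± 0.23 (SE, adjusted p = 2.45e-05).

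The 10 BMP ligand genes summed to 221 ± 37.3 CPM in IL-33 lungs and 455 ± 27.6 CPM in control lungs. Bmp7 made up 5.88% ± 1.69 of the BMP ligand reads in IL-33 lungs and 0.947% ± 0.247 in control lungs (SD, n = 5 each), and Bmp4 made up 24.4% ± 3.04 of the same reads in IL-33 lungs and 17.6% ± 1.63 in control lungs (SD, n = 5 each). Alveolar marker lists moved in the same direction as the lower BMP genes: 9 of 10 alveolar type 1 markers were lower (90%, against 34.8% of all genes), summing to 2822 to 3725 CPM in IL-33 libraries and 6958 to 7673 CPM in control libraries. Of the 10 fibroblast markers, 7 were lower (70%, against 34.8% of all genes) and 3 higher (30%, against 35.1%). Their sum was 1389 to 1883 CPM in IL-33 libraries and 2846 to 3207 CPM in control libraries. The part of either list in the BMP ligand levels was not tested.

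Among the GDF ligand genes, 3 of 10 were tested and none was lower. Gdf11, a close relative of myostatin, stood at 7.70, 8.61, 10.8, 9.74 and 7.65 CPM in IL-33 libraries 1 to 5, against 3.53, 2.30, 4.62, 2.28 and 2.18 CPM in control libraries 1 to 5. The groups did not overlap, and the change was 1.57 ± 0.23 (SE, adjusted p = 1.91e-05). Gdf10 (BMP3b), the most abundant of these genes per kilobase (4.52 RPKM in IL-33 lungs and 3.60 RPKM in control lungs), stood at 18.8, 22.2, 22.2, 27.7 and 27.0 CPM in IL-33 libraries 1 to 5, against 19.0, 19.6, 18.1, 19.3 and 17.8 CPM in control libraries 1 to 5. Its groups overlapped and its change was small, 0.33 ± 0.11 (SE, adjusted p = 0.0127). Gdf15, a stress-induced ligand that signals through GFRAL, averaged 1.56 ± 1.23 CPM in IL-33 lungs and 1.75 ± 0.953 CPM in control lungs and was not called (-0.18, adjusted p = 0.755).

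All 4 genes for latent TGF-beta binding proteins were lower. Ltbp4, which encodes a matrix protein of elastic fibres that binds latent TGF-beta 1 (ENSMUSG00000040488, chromosome 7, 27305136 to 27337692), stood at 161, 100.2, 142, 207 and 215 CPM in IL-33 libraries 1 to 5, against 815, 845, 917, 971 and 906 CPM in control libraries 1 to 5. The highest IL-33 library was far below the lowest control, and the change was -2.43 ± 0.21 (SE, adjusted p = 1.03e-07). Ltbp2, the member of this family that does not bind latent TGF-beta, stood at 56.7, 58.5, 61.2, 70.3 and 77.5 CPM in IL-33 libraries 1 to 5, against 137, 161, 154, 183 and 161 CPM in control libraries 1 to 5. Ltbp3, which is secreted with latent TGF-beta, stood at 91.0, 90.4, 86.1, 103 and 107 CPM in IL-33 libraries 1 to 5, against 198, 194, 212, 205 and 181 CPM in control libraries 1 to 5. Neither pair of groups overlapped, with changes of -1.29 for Ltbp2 and -1.05 for Ltbp3 (adjusted p = 1.8e-07 and 1.07e-07), and that of Ltbp3 was -0.67 after length and GC correction. Ltbp1, a carrier of latent TGF-beta 1, averaged 101 ± 12.5 CPM in IL-33 lungs and 129.8 ± 9.15 CPM in control lungs (log2 fold change -0.36 ± 0.10, adjusted p = 0.003), and its call was lost after length and GC correction (-0.10, adjusted p = 0.272).

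The balance within the LTBP group differed as well. Ltbp4 made up 38.0% ± 4.92 of the LTBP reads in IL-33 lungs and 64.6% ± 1.18 in control lungs (SD, n = 5 each), and Ltbp1 made up 23.9% ± 2.06 of the same reads in IL-33 lungs and 9.43% ± 0.639 in control lungs (SD, n = 5 each). By level per kilobase Ltbp4 was in place 5 among the members in IL-33 lungs (25.5 RPKM) and in place 2 in control lungs (138 RPKM). The smooth muscle and pericyte list had 7 of 10 markers lower (70%, against 34.8% of all genes) and 2 higher (20%, against 35.1%). After length and GC correction, 6 were lower (37.8% of all genes) and 2 higher (30.4% of all genes). The list summed to 1211 to 1319 CPM in IL-33 libraries and 1355 to 1695 CPM in control libraries. Its part in the LTBP levels was not tested.

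Receptor genes were lower or not called. Acvrl1, the endothelial type I receptor for BMP9 and BMP10 (ENSMUSG00000000530, chromosome 15, 101128522 to 101145336), was the most abundant member per kilobase in both groups (104 RPKM in IL-33 lungs and 220.5 RPKM in control lungs). It stood at 419, 373, 424, 475 and 532 CPM in IL-33 libraries 1 to 5, against 855, 962, 996, 908 and 980.3 CPM in control libraries 1 to 5. All IL-33 libraries were below all controls, with a change of -1.08 ± 0.10 (SE, adjusted p = 5.73e-07). Bmpr2, the type II receptor whose human orthologue is mutated in heritable pulmonary arterial hypertension (ENSMUSG00000067336, chromosome 1, 59763400 to 59879014), stood at 438, 290.3, 423, 359 and 417 CPM in IL-33 libraries 1 to 5, against 813, 914, 884, 945 and 1046 CPM in control libraries 1 to 5. The groups did not overlap, and the change was -1.26 ± 0.12 (SE, adjusted p = 6.66e-07). Bmpr1a, a type I receptor for BMP2 and BMP4, stood at 66.0, 46.2, 63.2, 68.2 and 73.0 CPM in IL-33 libraries 1 to 5, against 119, 124, 125, 137 and 134 CPM in control libraries 1 to 5. Its groups were also apart, with a change of -1.01 ± 0.12 (SE, adjusted p = 1.97e-06).

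The genes of the TGF-beta receptors were lower as well. Tgfbr2, the TGF-beta type II receptor gene, averaged 247 ± 37.4 CPM in IL-33 lungs and 395 ± 10.3 CPM in control lungs (log2 fold change -0.67 ± 0.10, adjusted p = 3.34e-05). Tgfbr1, its type I partner, averaged 65.6 ± 4.33 CPM in IL-33 lungs and 90.2 ± 2.57 CPM in control lungs (log2 fold change -0.46 ± 0.05, adjusted p = 1.58e-05). The activin type II receptor gene Acvr2a averaged 50.7 ± 6.99 CPM in IL-33 lungs and 85.6 ± 10.5 CPM in control lungs (log2 fold change -0.75 ± 0.12, adjusted p = 3.62e-05). For these 3 genes, and for Acvr1, a type I receptor of BMPs (-0.72, adjusted p = 2.55e-06), the groups did not overlap. Acvr1b, the activin type I receptor gene (-0.15, adjusted p = 0.083), Bmpr1b, a BMP type I receptor gene (-0.31, adjusted p = 0.134), and Acvr2b, a second activin type II receptor gene (0.32, adjusted p = 0.285), were not called. Acvr1b was called lower without control library 1 (-0.21, adjusted p = 0.0136) and Bmpr1b without IL-33 library 1 (-0.43, adjusted p = 0.0395).

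Within the 4 type II receptor genes, Bmpr2 made up 55.9% ± 2.37 of the reads in IL-33 lungs and 65.4% ± 1.95 in control lungs (SD, n = 5 each). Tgfbr2 made up 36.0% ± 2.79 of the same reads in IL-33 lungs and 28.2% ± 2.10 in control lungs (SD, n = 5 each). Within the 7 type I genes, Acvrl1 made up 66.9% ± 1.84 of the reads in IL-33 lungs and 74.0% ± 0.966 in control lungs (SD, n = 5 each). The endothelial marker list moved beside these receptors, with 6 of 10 markers lower (60%, against 34.8% of all genes) and none higher (against 35.1%). The list summed to 2808 to 3402 CPM in IL-33 libraries and 5278 to 5690.3 CPM in control libraries. Its genes differed among themselves: Cdh5 (VE-cadherin) changed by -1.59 and Kdr (a VEGF receptor) by -1.55, whereas Cldn5 (a tight junction protein) was not called at -0.01 (adjusted p = 0.947). Cldn5 was lower after length and GC correction (-0.46, adjusted p = 0.00292). With that correction, 8 of the 10 markers were lower (against 37.8% of all genes) and none higher (against 30.4%). The part of this list in the receptor levels was not tested.

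**Figure D4:**
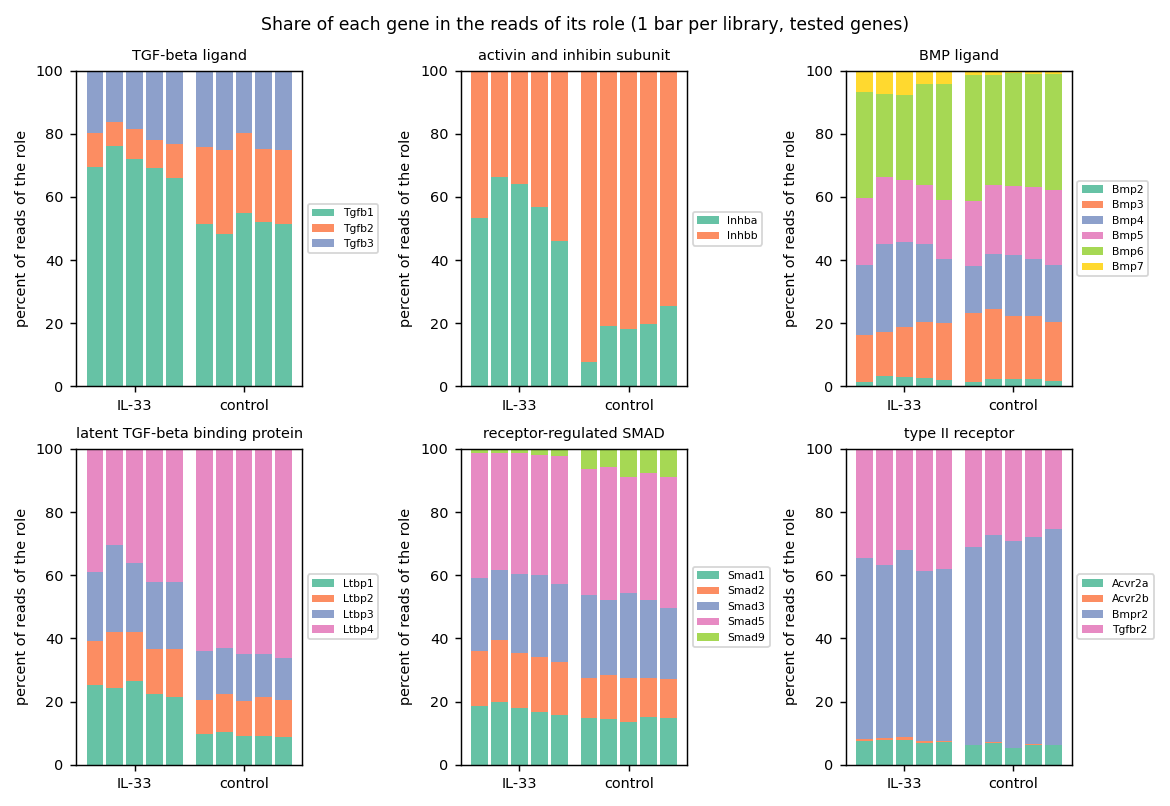
Percent of the reads of a role held by each tested gene of 6 roles; each stacked bar is a library, with IL-33 libraries 1 to 5 on the left and control libraries 1 to 5 on the right of each panel. Tgfb1, Inhba and Bmp7 hold larger shares in IL-33 lungs, and Ltbp4, Smad9 and Bmpr2 smaller ones.

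Both co-receptor members were lower. Tgfbr3 encodes betaglycan, which presents TGF-beta 2 to its receptors and binds inhibin. It stood at 65.7, 46.2, 56.0, 67.0 and 67.5 CPM in IL-33 libraries 1 to 5, against 139.8, 182, 172, 232 and 219 CPM in control libraries 1 to 5. No IL-33 library reached the lowest control, and the change was -1.64 ± 0.17 (SE, adjusted p = 4.69e-07). Tgfbr3l, named for its likeness to Tgfbr3, averaged 2.12 ± 0.396 CPM in IL-33 lungs and 3.94 ± 0.894 CPM in control lungs (log2 fold change -0.89 ± 0.20, adjusted p = 0.00179) with overlapping groups, and 52.2% of its exonic bases are shared on the same strand with Gm49320, so its counts are uncertain.

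Of the 8 SMAD genes, 6 were lower and 2 were not called. Smad9, which encodes a BMP-regulated SMAD (ENSMUSG00000027796, chromosome 3, 54755582 to 54801257), stood at 2.86, 2.41, 3.24, 4.67 and 4.90 CPM in IL-33 libraries 1 to 5, against 17.6, 17.4, 25.7, 22.3 and 24.6 CPM in control libraries 1 to 5. The groups lay far apart, and its change of -2.53 ± 0.23 (SE, adjusted p = 1.7e-07) was the largest fall of the members. Smad5, another BMP-regulated SMAD and the most abundant receptor-regulated SMAD gene per kilobase (11.6 RPKM in IL-33 lungs and 15.3 RPKM in control lungs), stood at 86.1, 77.2, 86.1, 87.1 and 95.7 CPM in IL-33 libraries 1 to 5, against 109, 126, 104, 115 and 115 CPM in control libraries 1 to 5. The groups did not overlap, and the change was -0.40 ± 0.07 (SE, adjusted p = 0.000255). Smad1, the third BMP-regulated SMAD, was not called at 39.5 ± 1.84 CPM in IL-33 lungs and 41.4 ± 1.96 CPM in control lungs (-0.07, adjusted p = 0.333). Smad9 made up 1.61% ± 0.426 of the receptor-regulated SMAD reads in IL-33 lungs and 7.57% ± 1.43 in control lungs (SD, n = 5 each).

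Of the TGF-beta and activin SMADs, Smad3 averaged 54.1 ± 5.60 CPM in IL-33 lungs and 70.7 ± 4.97 CPM in control lungs (log2 fold change -0.38 ± 0.08, adjusted p = 0.000869). Smad2 was not called at 39.5 ± 0.976 CPM in IL-33 lungs and 37.3 ± 3.35 CPM in control lungs (0.09, adjusted p = 0.287), but it was called higher after length and GC correction (0.28, adjusted p = 0.00483). Smad4, the shared partner, stood at 77.8, 67.2, 78.6, 77.0 and 74.5 CPM in IL-33 libraries 1 to 5, against 88.2, 95.5, 87.4, 109 and 113 CPM in control libraries 1 to 5. Its groups did not overlap, and its change was -0.39 ± 0.09 (SE, adjusted p = 0.0009).

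The inhibitory SMAD genes, themselves known as targets of the pathway, were both lower. Smad6, which acts mainly against BMP receptors, stood at 103, 108, 109, 110.5 and 116 CPM in IL-33 libraries 1 to 5, against 217, 285, 289, 227 and 231 CPM in control libraries 1 to 5. The IL-33 libraries lay close together, below all controls, with a change of -1.20 ± 0.09 (SE, adjusted p = 1.44e-07). Smad7, which acts against TGF-beta and BMP receptors, averaged 78.1 ± 6.91 CPM in IL-33 lungs and 154 ± 42.9 CPM in control lungs (log2 fold change -0.97 ± 0.20, adjusted p = 0.000162) without overlap. The share of Smad6 in the reads of the 2 genes was 58.3% in IL-33 lungs and 62.4% in control lungs, a difference that did not pass the exact permutation test (adjusted p = 0.293).

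Another 4 members carry a matching symbol but are no ligand, receptor or SMAD. Tgfb1i1 (HIC-5), a focal adhesion protein and the most abundant of them per kilobase, stood at 104, 96.8, 83.7, 85.9 and 91.4 CPM in IL-33 libraries 1 to 5, against 109, 113, 134, 102 and 96.3 CPM in control libraries 1 to 5. The groups overlapped, and the change of -0.26 ± 0.10 (SE, adjusted p = 0.0203) was lost after length and GC correction (-0.16, adjusted p = 0.133), without IL-33 library 3 (adjusted p = 0.057) and without IL-33 library 4 (adjusted p = 0.0511). Bmp1, a metalloproteinase that trims procollagens, averaged 90.4 ± 7.60 CPM in IL-33 lungs and 104 ± 4.06 CPM in control lungs (log2 fold change -0.19 ± 0.06, adjusted p = 0.0183), and after length and GC correction its value was 0.06 and not called (adjusted p = 0.406). Tgfbrap1, a receptor-associated protein of endosomes, averaged 54.8 ± 6.86 CPM in IL-33 lungs and 88.2 ± 5.07 CPM in control lungs (log2 fold change -0.68 ± 0.09, adjusted p = 1e-05), with -0.42 after the correction. Bmp2k, a BMP-inducible kinase, averaged 57.7 ± 2.49 CPM in IL-33 lungs and 48.5 ± 3.43 CPM in control lungs (log2 fold change 0.25 ± 0.05, adjusted p = 0.00422), and 14.0% of its exonic bases lie opposite Paqr3.

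The order of the members by level per kilobase shifted. In IL-33 lungs it ran Acvrl1, Smad6, Tgfbr2, Tgfb1 and Ltbp4 (104, 34.0, 30.2, 27.0 and 25.5 RPKM). In control lungs it ran Acvrl1, Ltbp4, Smad6, Bmpr2 and Tgfbr2 (220.5, 138, 78.0, 51.2 and 48.2 RPKM). Tgfb1, a ligand, was thus in place 4 in IL-33 lungs and in place 16 in control lungs. Tgfbr3 was in place 22 in IL-33 lungs and 9 in control lungs. Neighbours in this order were not tested against each other.

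The remaining 15 members did not pass the filter. Bmp10, a heart-derived ligand of ACVRL1, and Gdf1, Inhbc and Inhbe had 0 reads in all 10 libraries, where 3 reads would stand for 0.212 to 0.389 CPM. Gdf1 shares all its exonic bases with Cers1 on the same strand, so its 0 reads say little about its RNA. Cardiac muscle marker Myh6 stood at 133 ± 66.5 CPM in IL-33 lungs and 648 ± 348 CPM in control lungs, so cardiac muscle RNA was detected where Bmp10 had no read. Gdf2 (BMP9), the liver-derived ligand of ACVRL1, had 6 reads in all IL-33 libraries together and 18 in all control libraries.

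Without a filter, 3 of the 11 untested members with any read were called, against 39.8% of 30478 genes in that fit. Gdf6, a ligand of joint and eye development, had 42 reads over the IL-33 libraries and 11 over the control libraries with no overlap in CPM (log2 fold change 1.89, adjusted p = 0.00907). Nog, which encodes the BMP antagonist noggin, had 50 reads over the IL-33 libraries and 18 over the control libraries (1.39, adjusted p = 0.0356) with overlapping groups. Gdf3, known for its part in the early embryo, had 25 reads over the IL-33 libraries and 2 over the control libraries (adjusted p = 0.00277). Its groups overlapped too, with IL-33 libraries 3 and 5 (0.130 and 0.149 CPM) below control library 2 (0.219 CPM). No other setting tested these 3 genes. Gdf5, Gdf7, Gdf9, Bmp8a, Bmp8b, Bmp15 and Acvr1c had between 2 and 44 reads over the IL-33 libraries and between 1 and 50 over the control libraries, and none was called. Of the exonic bases of Gdf5, 40.3% lie opposite the gene model Gm15557, so its counts are uncertain.

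Other genes of the pathway were counted in 6 lists of known roles. The 14 co-receptors and membrane modulators had 10 lower (83.3%, against 34.8% of all genes) and 2 higher (16.7%, against 35.1%) of 12 tested, with a median of -1.06. Eng, the endoglin co-receptor that works with ACVRL1, averaged 321 ± 68.4 CPM in IL-33 lungs and 809 ± 70.1 CPM in control lungs (log2 fold change -1.33 ± 0.15, adjusted p = 1.48e-06). Hjv, the hemojuvelin co-receptor, was lower at -1.56 (adjusted p = 0.00557) with overlapping groups. Lrg1, a secreted protein that binds endoglin, was higher at 151 ± 44.2 CPM in IL-33 lungs and 46.9 ± 7.98 CPM in control lungs (log2 fold change 1.69 ± 0.22, adjusted p = 3.41e-06).

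Of the 22 extracellular antagonists and modulators, 9 were lower (56.25%, against 34.8% of all genes) and 3 higher (18.75%, against 35.1%) of 16 tested, with a median of -0.38. After length and GC correction, 10 were lower (against 37.8% of all genes) and 1 higher (against 30.4%). Chrdl1, a chordin-like BMP antagonist, averaged 11.1 ± 3.24 CPM in IL-33 lungs and 47.8 ± 4.83 CPM in control lungs (log2 fold change -2.08 ± 0.19, adjusted p = 1.49e-07). Bgn, the matrix proteoglycan biglycan and the gene with the most reads in the list, passed narrowly (log2 fold change -0.20 ± 0.07, adjusted p = 0.0454), and its call was lost after length and GC correction (-0.09, adjusted p = 0.343) and without any one of IL-33 libraries 1, 3 and 4 and control libraries 3 and 4 (adjusted p = 0.0687 to 0.111).

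Of 20 genes of latent TGF-beta activation and storage, 7 were higher (35%, against 35.1% of all genes), 8 lower (40%, against 34.8%) and 5 not called (median -0.02), near the shares of all genes. Itgb3, whose product pairs with the integrin alpha-V subunit that binds latent TGF-beta, averaged 203 ± 37.5 CPM in IL-33 lungs and 33.9 ± 5.75 CPM in control lungs (log2 fold change 2.58 ± 0.16, adjusted p = 1.34e-08). Itgb6, the epithelial partner of the same subunit, was lower instead (-0.87, adjusted p = 0.000352), as was the protease gene Htra1 (-1.06, adjusted p = 6.15e-07). Fn1 (fibronectin), the gene with the most reads in this list over all libraries, was not called (0.21, adjusted p = 0.0774) but was higher after length and GC correction (0.50, adjusted p = 0.000157). Of the 28 intracellular regulators of SMAD signalling, 15 were lower (55.6%, against 34.8% of all genes) and 4 higher (14.8%, against 35.1%) of 27 tested, with a median of -0.31. Smurf2, a ubiquitin ligase for SMADs and receptors, averaged 99.7 ± 7.85 CPM in IL-33 lungs and 249 ± 26.7 CPM in control lungs (log2 fold change -1.32 ± 0.09, adjusted p = 4.93e-08), and Nedd4l, another such ligase (-1.27), and Sptbn1, a spectrin that binds SMADs (-1.18), fell as well.

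Of 28 genes known as TGF-beta targets, 10 were higher (35.7%, against 35.1% of all genes), 8 lower (28.6%, against 34.8%) and 10 not called (median 0.11), shares close to those of all genes. The largest rises were those of Timp1, a metalloproteinase inhibitor, at 116 ± 44.8 CPM in IL-33 lungs and 4.73 ± 0.716 CPM in control lungs (log2 fold change 4.61 ± 0.26, adjusted p = 1.77e-08), and Itgae, the CD103 integrin of lymphocytes and dendritic cells, at 35.5 ± 4.63 CPM in IL-33 lungs and 8.03 ± 1.20 CPM in control lungs (log2 fold change 2.14 ± 0.12, adjusted p = 1.35e-08). Col3a1, a fibrillar collagen gene with the most reads in the list, rose by 1.05 (adjusted p = 1.09e-05). The classical target Ccn2 was lower instead (-0.75, adjusted p = 0.000162).

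Of 16 tested genes known as BMP targets, 7 were lower (43.75%, against 34.8% of all genes) and 4 higher (25%, against 35.1%), with a median of -0.30. Tmem100, an endothelial gene downstream of ACVRL1, averaged 235 ± 51.7 CPM in IL-33 lungs and 719 ± 73.4 CPM in control lungs (log2 fold change -1.61 ± 0.18, adjusted p = 7.6e-07). Hamp, the iron hormone hepcidin, was lower with overlapping groups (log2 fold change -1.95 ± 0.71, adjusted p = 0.00792), and its value was -3.10 after length and GC correction. The transcription regulator genes Id1 (-0.01, adjusted p = 0.965) and Id3 (-0.10, adjusted p = 0.692) were not called. Both were lower after length and GC correction (-0.72 and -0.59, adjusted p = 0.000313 and 0.0229). With that correction, 10 of the 16 tested genes of the list were lower (against 37.8% of all genes) and 4 higher (against 30.4%). Id2, which lymphoid cells also express, rose by 1.28 (adjusted p = 5.43e-07). Pmepa1, a membrane regulator of SMADs held by 3 of the lists, was higher at 209.6 ± 33.9 CPM in IL-33 lungs and 87.8 ± 10.4 CPM in control lungs (log2 fold change 1.25 ± 0.13, adjusted p = 7.38e-07). Lymphocyte and group 2 innate lymphoid cell markers, of which 8 of 10 were higher (80%, against 35.1% of all genes), summed to 736 to 979 CPM in IL-33 libraries and 84.0 to 218 CPM in control libraries. Their part in these levels was not tested.

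**Figure D5:**
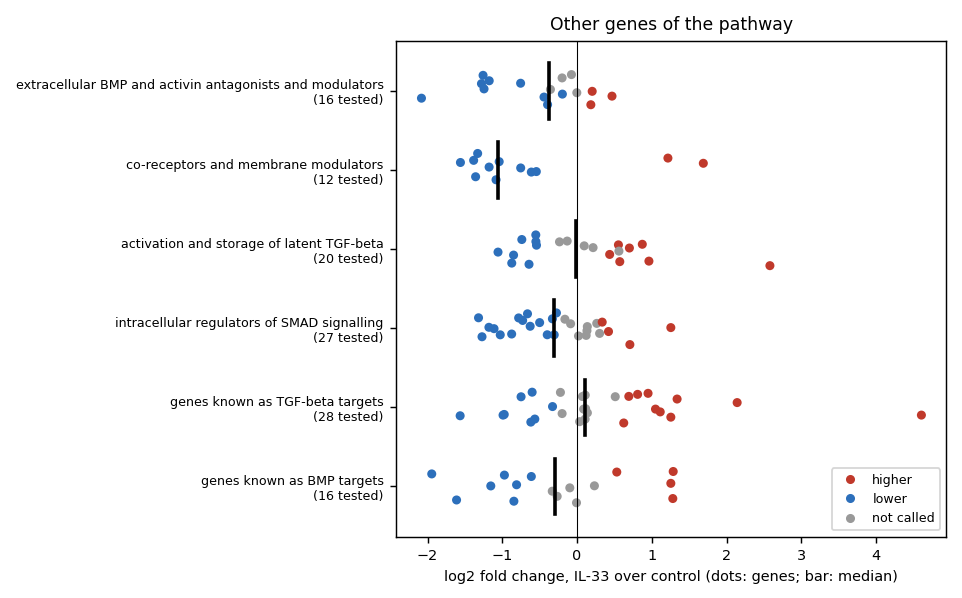
Log2 fold change, IL-33 over control, of each tested gene (dots, coloured by call) in 6 pathway lists, with each list's median as a bar and a thin line at 0. The co-receptor list has the lowest median (-1.06) and the TGF-beta target list the highest (0.11).

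The IL-33 libraries differed among themselves in how far the members fell. Of the 30 lower members, 20 had their lowest IL-33 value in library 2 (66.7%, against 51.1% of all lower genes) and 18 their highest in library 5 (60%, against 47.8% of all lower genes). Without library 2, 37 members were called, 30 of them lower, and without library 5, 38 were called, 31 of them lower. Over all genes, 10587 of 15848 tested were called without library 2 and 11089 of 15852 without library 5. The member reads made up 0.262% to 0.356% of counted reads in IL-33 libraries and 0.582% to 0.627% in control libraries. Marker lists not yet given moved as follows, beside 34.8% of all genes lower and 35.1% higher (37.8% and 30.4% after length and GC correction). Cardiac muscle markers, with 7 of 10 lower and none higher, summed to 216 to 649 CPM in IL-33 libraries and 602 to 2369 CPM in control libraries. Sftpc, not called at -0.05, was lower after length and GC correction (-0.81, adjusted p = 2.54e-05), as Ager was in both fits. Alveolar type 2 markers, with 7 of 10 lower and 2 higher (8 and 1 after length and GC correction), summed to 18434 to 22390.0 CPM in IL-33 libraries and 23185 to 26326 CPM in control libraries. Airway club and ciliated cell markers, with 6 of 10 lower and 1 higher (7 and 0 after the correction), summed to 11535 to 13435 CPM in IL-33 libraries and 19132 to 21365 CPM in control libraries. Mesothelial markers, with 3 of 6 lower and 2 higher (3 and 1 after the correction), summed to 165 to 236 CPM in IL-33 libraries and 270.4 to 323 CPM in control libraries. The part of these lists in the member levels was not tested.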

How the data were processed

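PolyA-selected lung RNA was made into stranded libraries, per the labels' protocols. The submitters' processing notes name FastQC 0.11.6, MultiQC 1.6, STAR 2.5.4b, HTSeq 0.9.1 and the GRCm38 genome; no source used here gives the annotation release or the strand setting of the counting. The deposited files hold raw counts of reads per gene, with no normalization by the authors. Entries that name no gene, 27.0% to 37.0% of records, entered neither library sizes nor tests.

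Groups came from the treatment label. Counts of all genes passing filterByExpr were fitted together with edgeR 4.0.16 under R 4.3.3, using TMM factors (0.969 to 1.03), group as the only term, the quasi-likelihood test and Benjamini-Hochberg adjustment. SEs come from log2(CPM + 0.1) over the 5 and 5 libraries, and RPKM uses exonic lengths of GENCODE (GRCm38). Shares were compared by exact permutation. No pair of libraries agreed within sampling noise (chi-square per degree of freedom at least 5.44).

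Values per library are given for members changed at least 2-fold and for the most abundant member of each role per kilobase; each pathway list is named by the gene with the highest mean CPM over all libraries and the 2 called genes, at a mean of 1 CPM or more, that changed most, except 1 that is not reported here, and other genes were chosen after their values were seen. Members and lists were chosen with earlier results of these data known. Alternatives were DESeq2 size factors, library size alone, scaling without the 50 most abundant genes, other filters, DESeq2 1.42.0, limma-voom (limma 3.58.1), the replicate number as a block, a length and GC correction, an adjusted p of 0.01, a test against a 1.5-fold change and leaving out each library.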

Additional observations from a re-analysis of the deposited data

Results flagged for a closer look

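In 88 sets of 5 libraries (44 tested members in each group), 6 had a library that lay apart from the other 4 by Dixon's criterion, which chance gives for about 1 in 20. IL-33 library 2 had the highest Gdf15 level, 3.68 CPM against 0.595 to 1.48 CPM in the other IL-33 libraries, and the lowest Ltbp1 level, 79.5 CPM against 103.6 to 109 CPM. IL-33 library 5 had the highest Bmp1 level, 103.8 CPM against 84.8 to 88.0 CPM, and the highest Bmp2k level, 62.1 CPM against 56.2 to 56.8 CPM. Control library 1 had the highest Bmp6 level, 199 CPM against 156 to 164 CPM in the other control libraries, and control library 2 the highest Inhba level, 7.66 CPM against 3.32 to 4.46 CPM. Outside the gene counts, the lowest share of multiply aligned records in an IL-33 library was 19.97%, above all control libraries at 15.0% to 16.2%.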

How the results depend on the processing

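Apart from the stricter thresholds, the direction and call of the 44 tested members held in 825 of 836 comparisons with the alternatives. The 1 reversal was Bmp1, at 0.060 after length and GC correction, and no scaling moved the median of all genes by over 0.1. Against a 1.5-fold change, 19 of the 44 tested members were called (4 higher and 15 lower), beside 4741 of all 15695 genes tested. Of the lists, 5 of 16 antagonists, 5 of 20 genes of latent TGF-beta activation, 8 of 27 intracellular regulators, 11 of 28 TGF-beta targets and 7 of 16 BMP targets were called. The count of co-receptors and the direction of all genes in this test are not given here. At an adjusted p of 0.01, 33 members (6 higher, 27 lower) and 7 antagonists were called, and the calls of Gdf10, Grem1, Bmp1 and Tgfb1i1 were lost. The share of all genes at this threshold is not given here, so these counts are not set against it. Leaving out each library in turn gave 36 to 38 called members, 7 of them higher and 29 to 31 lower. Over all genes, these fits called 10516 to 11089 of 15838 to 15947 tested. Of the shares, 394 of 429 comparisons held and 32 lost the call; per kilobase, Gdf10 (adjusted p = 0.106) and Acvr2a (0.0799) lost it and Tgfb3 (0.0413) gained it in the exact permutation test.

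Replicate numbers are shared by both groups, and whether they pair the libraries is not settled here. Same-number correlations of deviations ran from -0.0692 to 0.231, and 3 of 5 IL-33 libraries correlated best with their own number. Such correlations cannot decide whether the libraries are paired, so a blocked fit is given beside the main fit. With the replicate number as a block, 37 members (7 higher, 30 lower) and 11122 of all 15695 genes tested were called. Of the list genes named, Bgn lost its call in the blocked fit (adjusted p = 0.0754) and Fn1 gained one (adjusted p = 0.0410). Depth limits the 15 members under the filter, where intervals and floors cover counting error only, and exact tests of 5 against 5 libraries cannot go below 0.00794.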
